A study of Mus musculus with 12 samples.

Results

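Tcl1, Eras, Akt1, Akt2, Pik3ca, Foxo1 and Foxo3 are 7 genes of the PI3K and AKT signalling pathway, and they were followed here across mouse embryonic stem (ES) cells in which the gene for the nuclear receptor ERRb (Esrrb) had been knocked out or put back. A gene was taken from the array probe sets annotated to exactly 1 of these symbols, and where it had several, the probe set with the highest mean over 12 arrays was used. This gave 6 measured genes of the 7, out of 22180 genes named on the array by a probe set of their own. Eras had no probe set of its own and has no level here, because its 1 probe set is also listed for the neighbouring gene Pcsk1n. Foxo1 had 2 probe sets and the other measured genes 1 each.

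All cells were of the ES cell line K3. The group labelled KO/ERRb-wt is the ERRb knockout transduced with a lentivirus carrying ERRb, the group labelled KO/mock is the knockout with a mock treatment, and the group labelled WT/mock is the wild type with a mock treatment. What the mock vector held, and which part of the gene was deleted, are not given in the labels. All 3 groups were grown in N2B27 medium with LIF and the inhibitors CH99021 and PD0325901, and were then held for 3 days in N2B27 with both inhibitors and doxycycline, so these agents are shared by the controls too. Each group had 4 arrays, 2 from each of 2 clones, which the labels call biological replicates: clones 12-1 and 12-3 for KO/ERRb-wt, 8-3 and 8-4 for KO/mock, and 5-2 and 5-5 for WT/mock. The p-values therefore compare 4 arrays from 2 clones a group, and a group and its pair of clones cannot be told apart.

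AKT kinases are activated at the membrane by phosphoinositide lipids that PI3K makes, and they then phosphorylate targets such as the kinase GSK3 and the FOXO transcription factors, which leave the nucleus when phosphorylated. In mouse ES cells Tcl1, a coactivator that binds AKT, and Eras, a RAS-like protein that activates PI3K, are known as parts of this pathway that aid growth and self-renewal. Both inhibitors act close to it, CH99021 on GSK3 and PD0325901 on the kinase MEK. Arrays measure RNA, so the activity of the kinases, which depends on phosphorylation, was not measured.

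The promoters of Tcl1, Akt1 and Akt2 are shown because these were the members whose RNA differed between groups, and ERRb is a DNA-binding factor that recognises a nuclear receptor half-site with a short extension. Each line gives the 250 bases before an annotated start, 5′ to 3′ on the gene's strand, from RefSeq on build GRCm38.p6. Capitals mark a match to 1 of 3 motifs searched on both strands: TCAAGGTCA, the ERR response element; AGGTCA, the half-site it contains; and TGTTTAC, a forkhead motif of the kind FOXO factors bind. The Tcl1 window is chr12:105222738-105222987, minus strand. The Akt1 window is chr12:112674885-112675134, minus strand, at the first of 2 starts. The Akt2 window is chr7:27591302-27591551, plus strand, at the first of 4 starts.
Tcl1: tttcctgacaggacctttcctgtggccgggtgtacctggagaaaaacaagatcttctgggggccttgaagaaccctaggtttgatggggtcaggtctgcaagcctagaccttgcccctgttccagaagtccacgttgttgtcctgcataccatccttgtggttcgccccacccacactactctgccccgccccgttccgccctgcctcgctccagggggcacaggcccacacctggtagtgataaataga
Akt1: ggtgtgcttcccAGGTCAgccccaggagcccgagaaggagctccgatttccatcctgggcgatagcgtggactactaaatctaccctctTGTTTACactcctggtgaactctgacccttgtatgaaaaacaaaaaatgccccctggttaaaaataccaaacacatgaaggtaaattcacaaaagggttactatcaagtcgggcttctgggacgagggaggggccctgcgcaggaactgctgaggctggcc
Akt2: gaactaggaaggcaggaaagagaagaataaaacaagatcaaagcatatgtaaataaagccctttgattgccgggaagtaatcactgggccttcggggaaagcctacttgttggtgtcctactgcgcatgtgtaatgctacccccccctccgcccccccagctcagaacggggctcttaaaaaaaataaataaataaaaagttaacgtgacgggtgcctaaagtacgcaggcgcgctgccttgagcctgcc
The search covered 11 windows of the 7 genes, each reaching from 250 bases before to 50 bases after a start. The ERR response element was in none of these windows and in 0.423% of 32851 RefSeq promoter windows of the same length. The half-site and the forkhead motif were each found in 1 of the 11 windows, the Akt1 window printed above, at bases -238 to -233 and -161 to -155 from the start. Among all promoter windows 16.255% hold the half-site and 3.65% the forkhead motif. A match is a description of letters, and the absence of one says only that these letters are not in the window.

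The targeted gene was read first as a check of the labels. Esrrb stood at 6.99, 6.76, 6.50 and 6.68 (log2, as are all levels below) on the arrays labelled KO/ERRb-wt, at 7.48, 8.00, 7.74 and 7.41 on those labelled KO/mock, and at 7.38, 7.38, 7.39 and 7.38 on those labelled WT/mock. Its probe set was thus lowest in the group that carries the ERRb virus, and highest in the knockout, so it went against both labels. Where the probes lie relative to the deleted part and to the viral copy is not given, and a probe set outside them would check nothing. Every direction below is therefore one between arrays labelled KO/ERRb-wt, KO/mock and WT/mock, and those names stand for the labels.

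The naive ES cell markers were present in all groups, with a mean log2 level of 6 or more for 15 of 15, but many differed between groups by limma at an adjusted p under 0.05. In KO/ERRb-wt against KO/mock 1 rose and 6 fell, or 46.7%, beside 8.3% of all genes of that level. In KO/ERRb-wt against WT/mock 4 rose and 7 fell, or 73.3%, beside 37.8%, and in KO/mock against WT/mock 2 rose and 4 fell, or 40.0%, beside 10.8%. Their summed log2 level ran from 151.6 to 152.6 on KO/ERRb-wt arrays, 152.8 to 153.6 on KO/mock arrays and 151.8 to 154.2 on WT/mock arrays, so the KO/ERRb-wt arrays lay below the KO/mock arrays and overlapped the WT/mock arrays. Of the feeder fibroblast markers, 0 of 10 reached a mean log2 level of 6. The summed log2 level of the 10 feeder markers ran from 46.8 to 47.3 on KO/ERRb-wt arrays, 45.7 to 46.7 on KO/mock arrays and 45.9 to 47.2 on WT/mock arrays. By this sum the KO/ERRb-wt arrays lay above the KO/mock arrays and overlapped the WT/mock arrays. Between KO/ERRb-wt and KO/mock 0 of the 10 were called by limma, with 2 at an unadjusted p under 0.05. Of 15 measured markers of differentiated lineages, 6 reached a mean log2 level of 6. The summed level of the 15 ran from 82.5 to 83.8 on KO/ERRb-wt arrays, 81.8 to 82.8 on KO/mock arrays and 80.9 to 83.7 on WT/mock arrays. Array medians lay between 4.999 and 5.074. The arrays give no detection call, and their number limits the precision.

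Tcl1 was lowest in KO/ERRb-wt cells, below both other groups, while the kinases Akt1 and Akt2 stood higher there than in WT/mock cells and Akt2 also higher than in KO/mock cells. Pik3ca, Foxo1 and Foxo3 passed the test in no comparison. Of the 6 measured members, 2 were called between KO/ERRb-wt and KO/mock (1 higher, 1 lower), against 4.4% of all genes (1.24% higher, 3.17% lower). The 4 arrays of each group did not overlap for these 2 members, against 17.0% of genes (7.31% with all 4 arrays above, 9.69% with all below). Between KO/ERRb-wt and WT/mock 3 were called (2 higher, 1 lower), against 20.8% of all genes (8.82% higher, 12.0% lower), and these 3 did not overlap, against 28.5% (13.5% above, 15.0% below). Between KO/mock and WT/mock 0 were called by limma, against 5.58% of all genes (2.11% higher, 3.47% lower), with 2 at an unadjusted p under 0.05. The arrays of 1 member, Akt1, did not overlap there, against 15.9% of genes (8.44% above, 7.48% below). All 6 measured members had a mean log2 level of 6 or more, from 6.74 to 9.32. Of all genes of that level 8.3% were called between KO/ERRb-wt and KO/mock (1.77% higher, 6.53% lower). The share was 37.8% between KO/ERRb-wt and WT/mock (14.9% higher, 23.0% lower), and 10.8% between KO/mock and WT/mock (4.19% higher, 6.64% lower). The members' median log2 differences were 0.01, 0.02 and 0.04 in that order, and those of all genes 0.02, 0.03 and 0.00. A call means an adjusted p under 0.05 in limma, two-sided, with Benjamini-Hochberg adjustment over all 41345 probe sets. The 3 comparisons share arrays in pairs, so their values for a gene are not independent of each other.

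**Figure D1:**
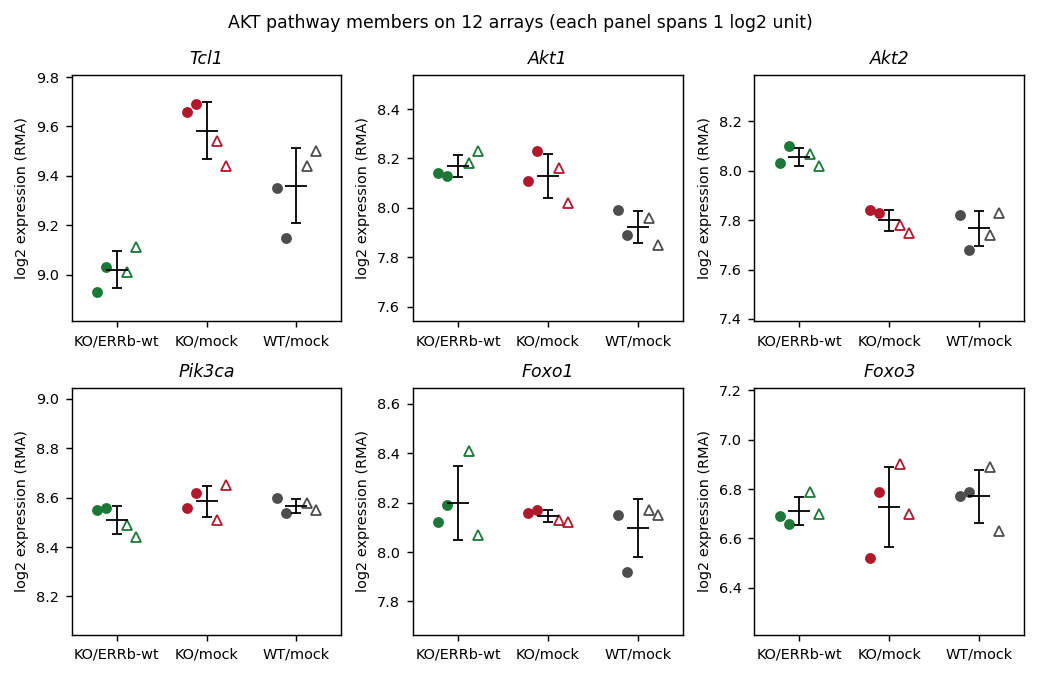
Log2 expression (vertical axis, RMA values) of the 6 measured members on each of 12 arrays, with the groups KO/ERRb-wt, KO/mock and WT/mock from left to right. Filled circles and open triangles are the 2 clones of a group, the horizontal and vertical bars give the mean and SD of 4 arrays, and every panel spans 1 log2 unit. The 4 KO/ERRb-wt arrays sit between 8.93 and 9.11 for Tcl1, below all other arrays, and between 8.02 and 8.10 for Akt2, above all other arrays.

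Tcl1, the AKT coactivator, stood at 8.93 and 9.03 on the arrays of clone 12-1 and at 9.01 and 9.11 on those of clone 12-3 in KO/ERRb-wt cells. It stood at 9.66 and 9.69 in clone 8-3 and at 9.54 and 9.44 in clone 8-4 of KO/mock cells, and at 9.35 and 9.15 in clone 5-2 and at 9.44 and 9.50 in clone 5-5 of WT/mock cells. All 4 KO/ERRb-wt arrays were below the lowest array of either other group, and the KO/mock and WT/mock arrays overlapped. The group means were 9.02 ± 0.07 in KO/ERRb-wt, 9.58 ± 0.11 in KO/mock and 9.36 ± 0.15 in WT/mock (SD, n = 4 each), so the order of the groups was KO/mock, WT/mock, KO/ERRb-wt from high to low. Tcl1 fell by 0.56 ± 0.09 (SE) on the log2 scale in KO/ERRb-wt against KO/mock (0.68-fold, 95% interval -0.75 to -0.38, limma adjusted p = 0.00633). Against WT/mock it fell by 0.34 ± 0.09 (0.79-fold, interval -0.53 to -0.16, limma adjusted p = 0.0178). The summed level of the naive ES cell markers was also below KO/mock on every KO/ERRb-wt array, as given above, and its part in the Tcl1 difference was not tested. The upper pair in that order, KO/mock and WT/mock, differed by 0.22 ± 0.09 (interval 0.04 to 0.41), which did not pass the test (limma adjusted p = 0.209). A difference in RNA per cell and a difference in the number of cells with the RNA cannot be told apart in such bulk samples.

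The Tcl1 calls held with any single array left out, but they rested on the clones. Without clone 8-3 the difference from KO/mock was -0.471 (limma adjusted p = 0.0901). The call against WT/mock ended without clone 12-1, 12-3 or 5-5, at -0.302, -0.382 and -0.235 (limma adjusted p = 0.105, 0.056 and 0.134). With the arrays of a clone averaged first, so that each group held 2 values, the differences kept their direction and neither passed (adjusted p = 0.176 and 0.132). Between the clones of a label, Tcl1 differed most in WT/mock, where clone 5-5 stood 0.21 above clone 5-2 (limma adjusted p = 0.656).

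Akt2, the AKT kinase best known for insulin signalling, stood at 8.03 and 8.10 in clone 12-1 and at 8.07 and 8.02 in clone 12-3 of KO/ERRb-wt cells. It stood at 7.84 and 7.83 in clone 8-3 and at 7.78 and 7.75 in clone 8-4 of KO/mock cells, and at 7.82 and 7.68 in clone 5-2 and at 7.74 and 7.83 in clone 5-5 of WT/mock cells. The 4 KO/ERRb-wt arrays lay above all 8 others, which overlapped among themselves. Akt2 rose by 0.25 ± 0.05 (SE) on the log2 scale in KO/ERRb-wt against KO/mock (1.19-fold, interval 0.13 to 0.37, limma adjusted p = 0.0308), with group means of 8.06 ± 0.03 and 7.80 ± 0.04 (SD, n = 4 each). Against WT/mock, whose mean was 7.77 ± 0.07 (SD, n = 4), it rose by 0.29 ± 0.05 (interval 0.17 to 0.41, limma adjusted p = 0.00377). KO/mock and WT/mock, next to each other in the order, differed by 0.04 ± 0.05 (interval -0.08 to 0.15, limma adjusted p = 0.842).

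The rise of Akt2 against KO/mock was close to the threshold. It was no longer called without any 1 of the 4 KO/ERRb-wt or the 4 KO/mock arrays (limma adjusted p = 0.0524 to 0.0794), in a model of these groups alone (0.054), or without clone 12-1, 12-3, 8-3 or 8-4 (0.102, 0.131, 0.118 and 0.13), while the difference stayed between 0.218 and 0.305 under all alternatives. The rise against WT/mock held with any array or any clone left out, and ended with clone averages, at 0.289 (limma adjusted p = 0.0792).

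Akt1, the AKT kinase linked to growth and survival, stood at 8.14 and 8.13 in clone 12-1 and at 8.18 and 8.23 in clone 12-3 of KO/ERRb-wt cells. It stood at 8.11 and 8.23 in clone 8-3 and at 8.16 and 8.02 in clone 8-4 of KO/mock cells, and at 7.99 and 7.89 in clone 5-2 and at 7.96 and 7.85 in clone 5-5 of WT/mock cells. Here the WT/mock arrays stood apart, below all arrays of the other groups, which overlapped. The means were 8.17 ± 0.04 in KO/ERRb-wt, 8.13 ± 0.08 in KO/mock and 7.92 ± 0.07 in WT/mock (SD, n = 4 each). Akt1 rose by 0.25 ± 0.06 (SE) on the log2 scale in KO/ERRb-wt against WT/mock (1.19-fold, interval 0.11 to 0.38, limma adjusted p = 0.0163). The difference of KO/mock from WT/mock was 0.20 ± 0.06 (interval 0.07 to 0.34) and did not pass over all probe sets (limma adjusted p = 0.0966). It passed when only probe sets with means of 6 or more were tested (0.204, adjusted p = 0.0351). The upper pair in the order, KO/ERRb-wt and KO/mock, differed by 0.04 ± 0.06 (interval -0.09 to 0.18, limma adjusted p = 0.753).

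The call of Akt1 against WT/mock held with any single array left out. It ended without clone 12-3 (0.215, limma adjusted p = 0.115), clone 5-2 (0.268, 0.0608) or clone 5-5 (0.229, 0.0697), and with clone averages (0.248, 0.12).

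Pik3ca, Foxo1 and Foxo3 showed no call. Pik3ca, the catalytic subunit of PI3K most often mutated in human cancer, averaged 8.51 ± 0.06 in KO/ERRb-wt, 8.59 ± 0.06 in KO/mock and 8.57 ± 0.03 in WT/mock (SD, n = 4 each), and its arrays overlapped in each comparison. The 95% intervals of its log2 differences were -0.20 to 0.04 for KO/ERRb-wt minus KO/mock, -0.18 to 0.06 for KO/ERRb-wt minus WT/mock, and -0.10 to 0.14 for KO/mock minus WT/mock. Foxo1, a FOXO factor that AKT keeps out of the nucleus, averaged 8.20 ± 0.15 in KO/ERRb-wt, 8.15 ± 0.03 in KO/mock and 8.10 ± 0.12 in WT/mock (SD, n = 4 each). Its intervals were -0.13 to 0.23, -0.08 to 0.28 and -0.13 to 0.23 in the same order of comparisons. The dimmer Foxo1 probe set averaged 6.03 ± 0.08 in KO/ERRb-wt, 5.90 ± 0.04 in KO/mock and 5.96 ± 0.07 in WT/mock (SD, n = 4 each), and was not called either. Its largest difference was 0.13 in KO/ERRb-wt against KO/mock (interval 0.00 to 0.26, limma unadjusted p = 0.049, adjusted p = 0.264). The probe sets disagree in the sign of the difference of KO/mock from WT/mock, which was 0.05 for the brighter and -0.0565 for the dimmer. Foxo3, the related factor known for its part in stem cell maintenance and stress responses, averaged 6.71 ± 0.05 in KO/ERRb-wt, 6.73 ± 0.16 in KO/mock and 6.77 ± 0.11 in WT/mock (SD, n = 4 each). Its intervals were -0.20 to 0.17, -0.25 to 0.13 and -0.23 to 0.14, and no pair of neighbouring groups differed beyond the spread for any of these 3 genes.

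**Figure D2:**
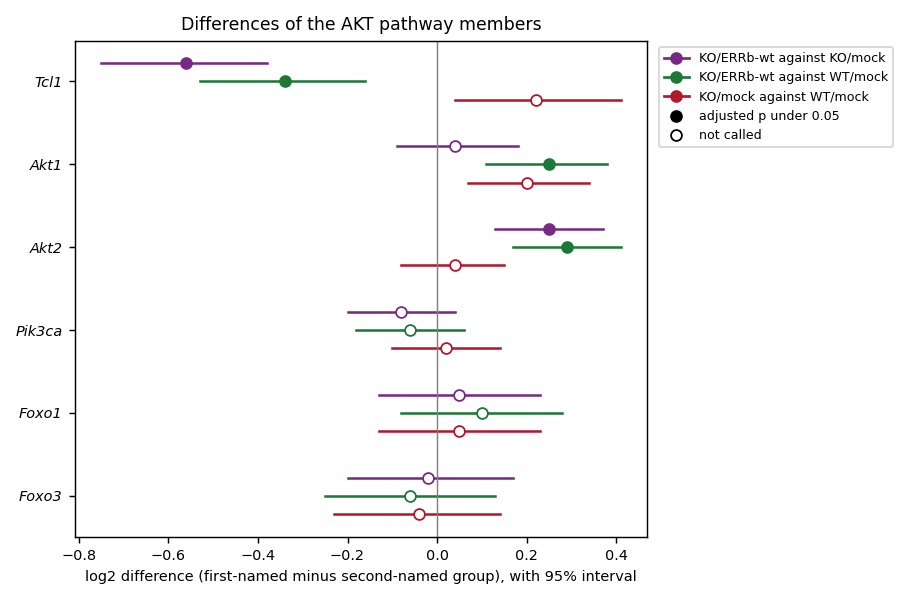
Log2 difference (horizontal axis) of each of the 6 measured members in 3 comparisons, drawn as the first-named minus the second-named group with its 95% interval. Filled points passed an adjusted p under 0.05. Tcl1 is at -0.56 and -0.34 on the left, Akt2 at 0.25 and 0.29 on the right, and the intervals of Pik3ca, Foxo1 and Foxo3 all include 0.

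The genes of the pathway were read from 9 lists by role, which hold the 6 measured members too. In these lists 105 genes had a probe set of their own and 9 had none or were not used here. The members' calls given above are therefore counted again below. They are those of Tcl1 and Akt2 against KO/mock, and of Tcl1, Akt1 and Akt2 in KO/ERRb-wt against WT/mock. The shares without the members were not computed. Between KO/ERRb-wt and KO/mock 8 of the 105 were called (2 higher, 6 lower), or 7.62%, against 4.4% of all genes. Between KO/ERRb-wt and WT/mock 40 were called (16 higher, 24 lower), or 38.1%, against 20.8%, and between KO/mock and WT/mock 10 (3 higher, 7 lower), or 9.52%, against 5.58%. Brighter genes were called more often, and 74 of the 105 had a mean log2 level of 6 or more. Of these 74 genes 8, 36 and 9 were called in the same order, or 10.8%, 48.6% and 12.2%, beside 8.3%, 37.8% and 10.8% of all genes of that level. The median log2 differences of the 105 genes were -0.01, 0.03 and 0.02, beside 0.02, 0.03 and 0.00 for all genes.

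These counts depended on the clones and on the model. With clone averages the 8 and the 10 became 0 by limma (25 and 20 genes at an unadjusted p under 0.05) and the 40 became 14. Without clone 8-3 each of the 8 calls against KO/mock ended (limma adjusted p = 0.0615 to 0.299), without clone 12-3 there were 3, and without either array of clone 8-3 or the second of clone 8-4 there were 5. The same count was 19 (5 higher, 14 lower) when only probe sets with means of 6 or more were tested, and 13 (4 higher, 9 lower) with a trended robust prior. The 40 became 25 without clone 12-3 and 22 without clone 5-2. The 10 became 5 without clone 8-4 or 5-2, and 6 in a model of these groups alone or without the first array of clone 8-3 or any 1 array of clones 8-4 and 5-2.

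**Figure D3:**
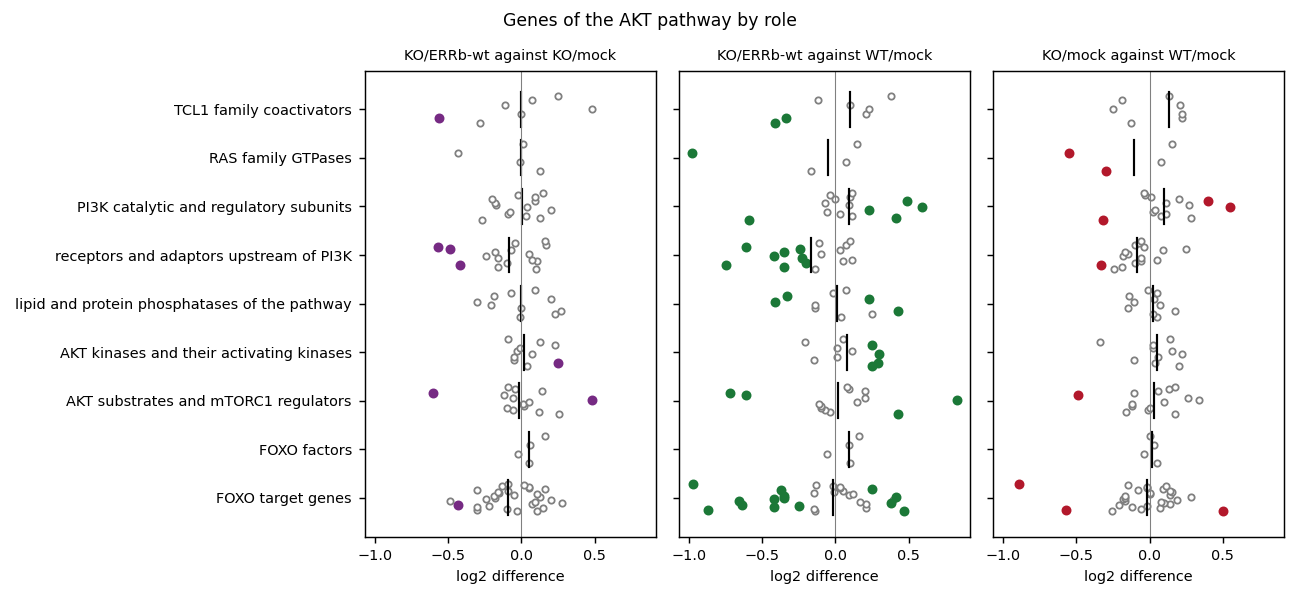
Log2 difference (horizontal axis) of each measured gene of 9 pathway lists (down the page, from upstream coactivators to FOXO targets) in 3 comparisons. Filled points passed an adjusted p under 0.05, open points did not, and black bars give the list medians. Most genes lie near 0 in each panel, and the receptors and adaptors have 8 filled points in the middle panel, all left of 0.

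Among the TCL1 family, 7 of 7 genes were measured. Mtcp1, the X-linked relative of Tcl1, fell by 0.41 ± 0.10 in KO/ERRb-wt against WT/mock (limma adjusted p = 0.0147). The mean log2 level of Mtcp1 was under 6. Its call ended without clone 12-3 (limma adjusted p = 0.111) or 5-2 (0.144), and with clone averages (0.108). Of the 5 Tcl1b genes, the clustered copies next to Tcl1, 0 were called by limma in each comparison, with 1 at an unadjusted p under 0.05 in each. Whether their probe sets tell these copies apart was not tested, so a signal could come from more than 1 of them. Among the RAS family GTPases, 4 were measured, Eras not among them. Rras, a GTPase that can activate PI3K, averaged 8.73 ± 0.06 in KO/ERRb-wt, 9.16 ± 0.19 in KO/mock and 9.71 ± 0.26 in WT/mock (SD, n = 4 each). It fell by 0.98 ± 0.13 in KO/ERRb-wt against WT/mock (limma adjusted p = 0.000337), a call that held under every alternative run, clone averages included. Its fall by 0.55 ± 0.13 in KO/mock against WT/mock (limma adjusted p = 0.0321) is among those that depended on single clones, as given below, and Nras was not called in any comparison.

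All 14 PI3K subunits were measured, and 0 were called by limma between KO/ERRb-wt and KO/mock, with 3 at an unadjusted p under 0.05. Pik3cd, the catalytic subunit best known from leukocytes, averaged 8.00 ± 0.04 in KO/ERRb-wt, 7.96 ± 0.09 in KO/mock and 7.41 ± 0.09 in WT/mock (SD, n = 4 each). It rose by 0.59 ± 0.07 in KO/ERRb-wt and by 0.55 ± 0.07 in KO/mock against the same WT/mock arrays (limma adjusted p = 0.000136 and 0.000749). Pik3r2, a regulatory subunit, rose by 0.49 ± 0.06 and 0.40 ± 0.06 in the same comparisons (limma adjusted p = 0.000148 and 0.00191). Pik3c2a, a class II PI3K with a role in membrane traffic, fell by 0.59 ± 0.07 in KO/ERRb-wt against WT/mock (limma adjusted p = 0.000242). These 3 calls of KO/ERRb-wt against WT/mock held under every alternative run. In that comparison 4 subunits rose and 1 fell, or 5 of 14 (35.7%, beside 20.8% of all genes), and these 5 were among 10 with a mean level of 6 or more, where 37.8% of all genes were called. Pik3cb and Pik3c2b were the others that rose, and they were not followed through the alternatives.

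Those receptors and adaptors upstream of PI3K that passed the test were lower in KO/ERRb-wt cells. All 16 were measured, and in KO/ERRb-wt against WT/mock 8 fell, 0 rose and 8 did not pass, against 12.0% of all genes that fell, with a list median of -0.17 beside 0.03 for all genes. The 8 were among 9 members with a mean level of 6 or more, where 23.0% of all genes fell. Against KO/mock 3 fell, 0 rose and 13 did not pass, against 3.17% of genes (6.53% of those of that level), with a median of -0.08 and differences above 0 for some of the 13, such as Pdgfra (0.17). Erbb3, a receptor of the neuregulin family, averaged 7.26 ± 0.10 in KO/ERRb-wt, 7.68 ± 0.11 in KO/mock and 8.02 ± 0.05 in WT/mock (SD, n = 4 each). It fell by 0.75 ± 0.07 in KO/ERRb-wt against WT/mock (limma adjusted p = 5.5e-05) and by 0.42 ± 0.07 against KO/mock (0.0123). Met, the hepatocyte growth factor receptor, fell by 0.61 ± 0.11 against WT/mock (limma adjusted p = 0.00274) and by 0.57 ± 0.11 against KO/mock (0.0198). Kit, the receptor for stem cell factor, fell by 0.49 ± 0.07 against KO/mock (limma adjusted p = 0.00631). The insulin receptor Insr fell by 0.42 ± 0.09 against WT/mock (limma adjusted p = 0.00941). Its call ended without clone 12-3 (limma adjusted p = 0.0665) or 5-2 (0.0544), and with clone averages (0.0648). The call of Erbb3 against KO/mock ended also without clone 12-1 (0.0549) or 12-3 (0.0592), and that of Met without clone 12-3 (0.0626) or either array of clone 8-3 (0.0525 and 0.0559) or the second array of clone 8-4 (0.0505).

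Among the phosphatases that oppose the pathway, 10 were measured and 4 were called in KO/ERRb-wt against WT/mock, 2 in each direction (40.0%, beside 20.8% of all genes). All 4 were among the 8 with a mean level of 6 or more, where 37.8% of all genes were called. Inpp5d and Inppl1, relatives that remove a phosphate from the PI3K product, moved in opposite directions, by 0.43 ± 0.08 and -0.41 ± 0.08 (limma adjusted p = 0.00366 and 0.00337). Phlpp2, which dephosphorylates AKT, fell by 0.33 ± 0.06 (limma adjusted p = 0.00214), and Phlpp1, with the same role, rose by 0.23 ± 0.07 (0.0409). With clone averages the calls of Inpp5d, Inppl1 and Phlpp2 ended (limma adjusted p = 0.0698, 0.0796 and 0.0635). Phlpp1 was not followed through the alternatives. The list of AKT kinases, their activating kinases and subunits of the mTOR complexes held 10 measured genes. In KO/ERRb-wt against WT/mock 4 of these 10 rose and 0 fell, against 8.82% of all genes that rose. Of all genes with a mean level of 6 or more, which 9 of the 10 had, 14.9% rose. The 4 were the members Akt1 and Akt2, counted again here, with Mlst8 and Prr5, which are subunits of the mTOR complexes and not kinases. Mlst8 rose by 0.30 ± 0.07 (limma adjusted p = 0.0133), a call that ended without clone 12-1 (0.0626), 12-3 (0.0736) or 5-5 (0.0867), and with clone averages (0.113). Prr5 was not followed through the alternatives.

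Downstream of AKT, 14 of 16 substrates and mTORC1 regulators were measured. Sgk1, a kinase related to AKT, averaged 10.04 ± 0.07 in KO/ERRb-wt, 9.56 ± 0.19 in KO/mock and 9.22 ± 0.22 in WT/mock (SD, n = 4 each). It rose by 0.83 ± 0.12 in KO/ERRb-wt against WT/mock (limma adjusted p = 0.000611), under every alternative run. Its rise by 0.48 ± 0.12 against KO/mock (limma adjusted p = 0.047) was no longer called with the replicate block (0.0509) or with median centring (0.051). Nor was it called without either array of clone 12-1 or 12-3 or 8-3, or without 3 further arrays, the second of clones 8-4 and 5-2 and the first of clone 5-5 (up to 0.121). The call ended also without the whole of clone 12-1 (0.165), 12-3 (0.155) or 8-3 (0.299), and with clone averages (0.26). Tbc1d7, a subunit of the TSC complex that restrains mTORC1, fell by 0.72 ± 0.08 in KO/ERRb-wt against WT/mock and by 0.60 ± 0.08 against KO/mock (limma adjusted p = 0.000184 and 0.00401). Tbc1d4, the AKT substrate that controls glucose transporter traffic, fell by 0.61 ± 0.08 in KO/ERRb-wt and by 0.49 ± 0.08 in KO/mock against WT/mock (limma adjusted p = 0.000346 and 0.00471). Tbc1d4 lies on chromosome 14 and had a mean log2 level under 6. The median log2 difference of the 343 genes there whose mean level reached 6 was -0.48 in KO/ERRb-wt and -0.41 in KO/mock against WT/mock. Tbc1d4 was not among these genes, and the part of that shift in its fall was not tested.

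The 4 FOXO factors were measured and 0 were called by limma in any comparison, with 0 of 4 at an unadjusted p under 0.05 in each. These counts take the brighter probe set of Foxo1. The dimmer one had an unadjusted limma p of 0.049 in KO/ERRb-wt against KO/mock. Of 30 listed FOXO target genes, 29 were measured. In KO/ERRb-wt against WT/mock 4 rose and 10 fell, or 48.3%, beside 20.8% of all genes, and the list median was -0.02. Of the 20 with a mean level of 6 or more, 12 were called, or 60.0%, beside 37.8% of all genes of that level. Txnip, which binds and inhibits thioredoxin, averaged 10.05 ± 0.04 in KO/ERRb-wt, 10.14 ± 0.11 in KO/mock and 11.03 ± 0.29 in WT/mock (SD, n = 4 each). It fell by 0.97 ± 0.12 in KO/ERRb-wt and by 0.89 ± 0.12 in KO/mock against WT/mock (limma adjusted p = 0.000289 and 0.00182). Bcl2l11, which encodes the death-promoting protein BIM, rose by 0.47 ± 0.06 and 0.50 ± 0.06 in the same comparisons (limma adjusted p = 0.000372 and 0.000944). Cited2, a transcriptional coregulator, fell by 0.64 ± 0.07 in KO/ERRb-wt against WT/mock and by 0.43 ± 0.07 against KO/mock (limma adjusted p = 0.000177 and 0.0126). Against KO/mock Cited2 was the only FOXO target called, 1 of 29 or 3.45% beside 4.4% of all genes, and its call ended without clone 12-3 (0.105) or 8-4 (0.0563) too.

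Between KO/mock and WT/mock the 10 called genes divided into 5 whose calls held with any array or clone left out and 5 whose calls did not. Those that held were Pik3cd, Pik3r2, Tbc1d4, Bcl2l11 and Txnip, and with clone averages these 5 were no longer called either (limma adjusted p = 0.0835, 0.137, 0.12, 0.106 and 0.117). Rras, Mras, Pik3c2a, Erbb3 and the transcriptional repressor Bcl6, a FOXO target, were the others, with differences of -0.55, -0.30, -0.32, -0.33 and -0.57. Each of these 5 calls ended without clone 8-4 (limma adjusted p = 0.113 to 0.282), without clone 5-2 (0.0647 to 0.265) and without the second array of clone 5-2 (0.0611 to 0.0933), among other omissions.

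The 5 nearest genes on each side of a member, among those whose mean log2 level reached 6, show whether it moved with its neighbourhood on the chromosome. Of all genes of that level 1.77% rose and 6.53% fell between KO/ERRb-wt and KO/mock, 14.9% and 23.0% between KO/ERRb-wt and WT/mock, and 4.19% and 6.64% between KO/mock and WT/mock. Around Tcl1, 1 of 10 neighbours was called between KO/ERRb-wt and KO/mock, Gskip, which binds GSK3 (-0.36 ± 0.08, limma adjusted p = 0.0395), and its call ended under most alternatives, the replicate block included (0.05). Against WT/mock 0 of the 10 neighbours of Tcl1 were called by limma, with 3 at an unadjusted p under 0.05, and their median log2 difference was 0.08 while Tcl1 stood at -0.34. Around Akt1, which rose by 0.25 in KO/ERRb-wt against WT/mock, 4 of 10 neighbours fell, 0 rose and 6 did not pass, with a median of -0.20. In KO/mock against WT/mock 2 fell, 0 rose and 8 did not pass, with a median of -0.30. Atp5mpl, Siva1 and Cdca4 had differences above 0 in both (0.12, 0.08 and 0.12, then 0.09, 0.08 and 0.03), and none of these passed. Ppp1r13b and 5033406O09Rik were those that fell in KO/mock, calls that ended without clone 8-4 (limma adjusted p = 0.072 and 0.0775) or 5-2 (0.101 and 0.0867). Around Akt2, 2 of 10 neighbours rose and 1 fell in KO/ERRb-wt against WT/mock, beside 37.8% of genes of that level called, with a median of -0.06.

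Eras itself could not be measured, but its neighbourhood on the X chromosome moved. Between KO/ERRb-wt and KO/mock 8 of its 10 neighbours rose and 0 fell, against 1.77% of genes of that level that rose, with a median of 0.57. Between KO/mock and WT/mock 0 rose and 5 fell, against 6.64% that fell, with a median of -0.25, and between KO/ERRb-wt and WT/mock 4 rose and 0 fell, against 14.9% that rose, with a median of 0.22. In each comparison the largest difference among these neighbours was that of Pim2 or Was. Pim2 rose by 1.63 ± 0.11 in KO/ERRb-wt against KO/mock (limma adjusted p = 5.44e-05) and by 1.67 ± 0.11 against WT/mock (5.64e-06). Between KO/mock and WT/mock Pim2 differed by 0.05 ± 0.11 (0.907). Was rose by 1.15 ± 0.08 in KO/ERRb-wt against KO/mock (9.75e-05) and fell by 1.18 ± 0.08 in KO/mock against WT/mock (6.7e-05). Hdac6, a cytoplasmic deacetylase and the nearest of these neighbours, stood 0.88 ± 0.06 higher in KO/ERRb-wt than in KO/mock (limma adjusted p = 5.44e-05). It stood 0.76 ± 0.06 lower in KO/mock than in WT/mock (0.000105). Ebp, an enzyme of sterol synthesis, rose by 0.62 ± 0.06 in KO/ERRb-wt against KO/mock (limma adjusted p = 0.000532) and by 0.55 ± 0.06 against WT/mock (0.000102). The calls of Hdac6 and Ebp held with any array or clone left out, but with clone averages the calls of Hdac6 and Ebp against KO/mock ended (limma adjusted p = 0.0932 and 0.137), as did that of Hdac6 in KO/mock against WT/mock (0.0792). Clone averages also ended the calls of Pim2 and Was against KO/mock (limma adjusted p = 0.0932 and 0.0939) and that of Was in KO/mock against WT/mock (0.0737). Without clone 8-3 the neighbours Kcnd1, Timm17b and Pqbp1 were no longer called between KO/ERRb-wt and KO/mock (limma adjusted p = 0.0507, 0.0507 and 0.185). Without clone 8-3 or 8-4 Kcnd1, Otud5 and Timm17b were no longer called between KO/mock and WT/mock (0.0727 to 0.2), among other omissions. Whether Eras moved with its neighbours was not tested.

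**Figure D4:**
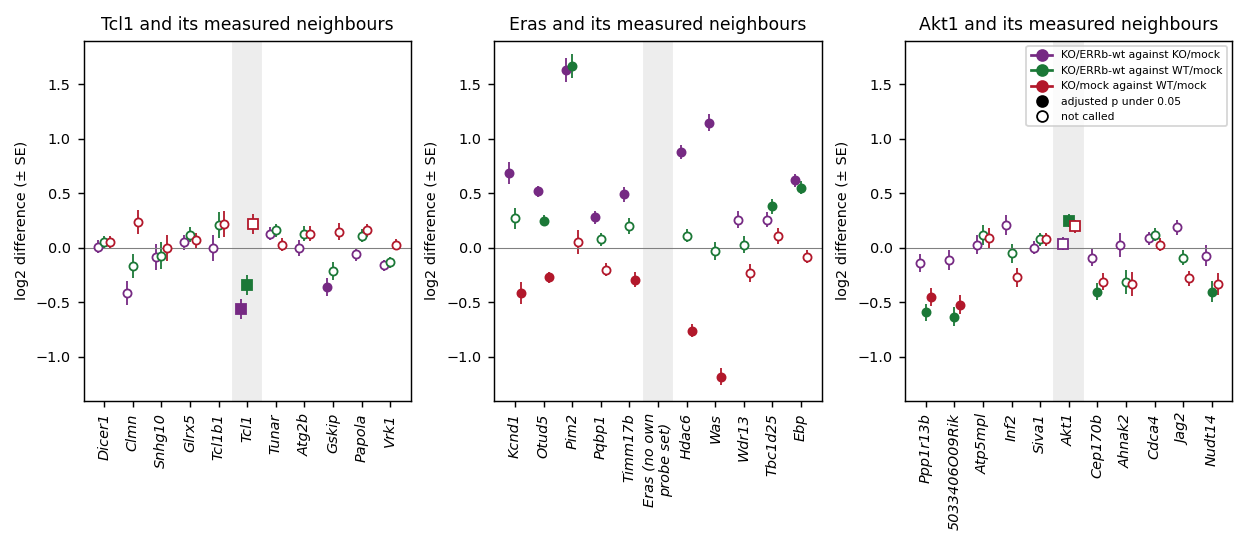
Log2 differences with SE (vertical axis) of the 5 nearest measured genes on each side of Tcl1, Eras and Akt1, in chromosome order along the horizontal axis, in 3 comparisons. Squares on the grey band are the member itself, filled marks passed an adjusted p under 0.05, and Eras has no mark. The neighbours of Eras lie above 0 for KO/ERRb-wt against KO/mock, with 8 of 10 filled, while Tcl1 stands below its 10 neighbours in both comparisons of KO/ERRb-wt.

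Over the 12 arrays, the genes whose levels ran most like a member's were found among 9124 genes by Pearson's r, as a description, since the arrays share groups and clones. For Tcl1 they were Jup (0.951), which encodes plakoglobin, Marcks (0.942), which encodes a substrate of protein kinase C, and Retsat (0.939), a retinol saturase. For Akt2 they were Nop53 (0.956), Plekhh2 (0.949) and Ebp (0.946), the last also a neighbour of Eras. For Akt1 they were Slc23a2 (0.938), a vitamin C transporter, Bckdk (0.932), a kinase of branched-chain amino acid breakdown, and Serpinh1 (0.928), a collagen chaperone. For Pik3ca they were Ints8 (0.924), Nsun6 (0.913) and Stxbp4 (0.912), for Foxo1 Trpc2 (0.899), Rundc1 (0.879) and Parn (0.875), and for Foxo3 Fnip2 (0.777), Khdc4 (0.758) and Psme4 (0.758). Among the members themselves, Tcl1 and Akt2 had an r of -0.66 and Akt1 and Akt2 one of 0.62 over these arrays. With Esrrb, r was 0.86 for Tcl1 and -0.79 for Akt2, where the KO/ERRb-wt arrays lie at 1 end of both genes.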

How the data were processed

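Total RNA of 12 cultures was labelled with biotin and hybridised to 1 MoGene 2.0 ST array each, per the labels. The authors deposited log2 expression values. The submitters' processing notes name RMA and the program Affymetrix Expression Console, without versions. RMA includes quantile normalization, which can hide a shift that most genes share, yet the deposited arrays did not share 1 distribution exactly (their medians ran from 4.999 to 5.074). No scanner file was used, and no value has a background level beside it.

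Gene names came from the platform annotation, which can be old: 23521 of 41345 probe sets had 1 symbol, 1814 several and 16010 none, and 802 repeated another exactly. A gene was counted by its 1-symbol probe set with the highest mean. Gene order came from RefSeq on GRCm38.p6, where 22126 genes were found. No source used here names the build of the array annotation, so only promoter windows have coordinates.

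All arrays entered 1 linear model of the 3 groups (limma 3.58.1, statmod 1.5.0, R 4.3.3) in which clone was a random block (its consensus correlation was 0.0286). The fit was first run on simulated data. Their noise was drawn for each array separately, without a clone effect, so they could not check how the model handles clones. Tests were two-sided, adjusted by Benjamini-Hochberg over all probe sets and called at an adjusted p under 0.05. The replicate numbers are shared by the groups, but the deviations of same-numbered arrays correlated at 0.124, 0.059 and 0.07, not all over 0.1, so they were not treated as pairs. The alternatives were no clone block, clone averages, a replicate block, only the groups compared, a level minimum, quantile normalization, median centring, a trended robust prior, other probe sets, and leaving out each array and clone. Named were the members, the targeted gene, up to 3 called genes per list and comparison with the smallest adjusted p, the 3 genes most like each member, and 5 neighbours on each side. The other two PI3K subunits, Prr5, Phlpp1, Nras and Pdgfra were named after their values were seen, to complete short counts or show a sign. The members and lists were chosen with earlier results of these data known. Array correlations were 0.9907 to 0.9932 within clones and 0.9815 to 0.9932 between clones.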

Additional observations from a re-analysis of the deposited data

Results flagged for a closer look

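The brighter Foxo1 probe set had a low array in WT/mock, the second of clone 5-2 at 7.92, while the other WT/mock arrays lay at 8.15, 8.17 and 8.15. Its gap to the nearest of them was 0.899 of the group's whole range, above Dixon's 95% limit for 4 arrays. Chance marks about 1 in 20 groups in this way, and 24 groups of arrays were looked at. Without this array the log2 difference of Foxo1 between KO/mock and WT/mock was -0.0107, and it was not called either way.

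The probe set listed for both Eras and Pcsk1n, which entered no comparison of the members, stood at 5.31, 4.85, 4.90 and 5.25 in KO/ERRb-wt, at 3.84, 3.95, 4.27 and 4.44 in KO/mock and at 4.53, 4.37, 4.74 and 4.29 in WT/mock. All 4 KO/ERRb-wt arrays were above all others, by 0.59 ± 0.16 (SE) on the log2 scale against WT/mock (limma adjusted p = 0.0247) and by 0.95 ± 0.16 against KO/mock (0.0101). Which of the 2 genes the signal belongs to cannot be told apart, so it is no level of Eras. The call against WT/mock ended without clone 12-1, 12-3, 5-2 or 5-5 (limma adjusted p = 0.0691, 0.0907, 0.138 and 0.0521) and without any 1 of 5 arrays, the first of clone 12-1, the second of clone 12-3, both of clone 5-2 and the second of clone 5-5 (0.0518 to 0.0706). That against KO/mock ended without clone 12-3 (0.0613) or 8-3 (0.101). With clone averages neither passed (limma adjusted p = 0.155 against KO/mock and 0.082 against WT/mock). The mean log2 level of this probe set over the 12 arrays was 4.56, below every array median, so it is a dim one.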

How the results depend on the processing

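Of 474 alternative values of the members' 18 differences, 434 kept direction and side of the threshold, 25 lost the call, 1 gained it and 14 changed sign, all of the last uncalled. Of 58 calls of other named genes, 46 held with each array left out, 31 with each clone and 15 with clone averages. Called probe sets in KO/ERRb-wt against KO/mock were 1329 (30.4% higher); clone averages gave 0 (6124 at an unadjusted limma p under 0.05), only the groups compared 777, omission of clones 12-1, 12-3 and 8-3 761, 333 and 145, and of arrays 544 to 1399, while quantile normalization moved the higher share to 42.2% and median centring to 21.5%. In KO/ERRb-wt against WT/mock 6460 became 2251, and 3931 and 3245 without clones 12-3 and 5-2. In KO/mock against WT/mock 1602 became 10, and 560 and 531 without clones 8-4 and 5-2, or 888 to 1841 without arrays. Members called against KO/mock were 2, then 0 with clone averages and without clone 8-3 (2 at an unadjusted p under 0.05 in both), 1 without 12-1, 12-3 or 8-4 or with only the groups compared, and 1 to 2 without arrays; against WT/mock 3, then 0 with clone averages (3 unadjusted) and 1 without 12-3 or 5-5; for KO/mock against WT/mock 0, then 1 at a mean level of at least 6. The replicate block gave 1258, 6584 and 1567 called probe sets and 2, 3 and 0 called members, and ended no member's call. Signs turned for Foxo3 against KO/mock (0.0456 with quantile normalization, 0.0152 and 0.0584 without clones 12-1 and 8-4, -0.0866 to 0.0407 without arrays), and in KO/mock against WT/mock for Foxo3 (0.0301 without clone 8-3, -0.102 to 0.0251 without arrays), Akt2 (-0.000435 without clone 8-3), Pik3ca (-0.00491 to 0.0448 without arrays) and Foxo1 (-0.0156 without clone 5-2, -0.0565 for the other probe set, -0.00376 for the mean, -0.0107 to 0.074 without arrays), and for Foxo1 against KO/mock (-0.0187 to 0.0963 without arrays). With 2 clones a group, the number of clones limits each call, and dim probe sets have no background measure; other causes were not tested.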
